A study of Canis lupus familiaris with 27 samples.

Results

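Of 15115 genes named on the Affymetrix Canine Genome 2.0 array, 8 that carry signals through or beside RAS were followed in canine mammary carcinomas. They were the GTPase genes HRAS, NRAS and RAP1A, the kinase gene BRAF, the RAS association domain genes RASSF1 and RASSF4, and PTPN11 and SHC1, which act between receptors and RAS. Every probe set carrying exactly one of these symbols was used, 15 of 42860 that are not controls, and the probe set of highest mean over the 27 tumors gave the main value of a gene. RNA came from 27 simple mammary carcinomas of dogs with a single array each, of which 13 had spread to a lymph node when they were removed (metastatic) and 14 had not (non-metastatic). All were negative for oestrogen receptor alpha, and tissue was macrodissected for a high content of carcinoma cells. Metastatic tumors, 6 of grade II and 7 of grade III, had a size of 2.42 ± 1.32 cm (SD, n = 13), and these dogs were aged 12.4 ± 2.66 years. Non-metastatic tumors, 5 of grade II and 9 of grade III by the sample labels, had a size of 5.21 ± 3.53 cm (SD, n = 14), and these dogs were aged 11.4 ± 1.65 years. By its methods the study chose non-metastatic tumors for larger size, so that size and lymph node status are linked by selection. The methods also name grade III as a criterion for non-metastatic tumors, although 5 of them are of grade II by the sample labels.

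RAS proteins are membrane-bound switches that are active with GTP and inactive with GDP. Growth factor receptors recruit adaptors such as SHC1 and the phosphatase SHP2, the product of PTPN11, which bring exchange factors to RAS, and active RAS then binds RAF kinases, which start the MEK and ERK kinase cascade. RASSF proteins bind RAS-like GTPases or the MST kinases of the Hippo pathway and are regarded as brakes on growth, and RASSF1 is silenced by promoter methylation in many human carcinomas, those of the breast included. Much of this signalling is set by GTP loading and phosphorylation, which an RNA level does not measure.

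Several properties of the arrays differed between the groups or between tumors. Metastatic arrays had a log2 upper quartile of 7.93 ± 0.04 (SD, n = 13), above the 7.75 ± 0.15 (SD, n = 14) of non-metastatic arrays (two-sided permutation test, p = 0.000110), and only 3 of the 14 non-metastatic arrays lay within the metastatic range. The 3′ to 5′ difference of GAPDH, a sign of RNA quality, was 1.84 ± 0.32 and 1.32 ± 0.42 (p = 0.00232 from the same test). Of the sample names, 11 in the metastatic and 0 in the non-metastatic group end in T, and what this marks is not given in the sources used here. Smooth muscle and myoepithelial markers were lower in metastatic tumors for 4 of 7 genes (summed log2 level 13.00 to 15.83 against 13.47 to 16.68), and all 5 measured proliferation genes were higher (9.06 to 13.20 against 6.79 to 11.90). None of 4 epithelial, 6 fibroblast, 6 T cell, 4 B cell, 6 macrophage and 5 adipocyte markers passed the test. Endothelium had 1 of 5 markers higher and 1 lower. The part of these markers and array measures in the differences below was not tested, and in bulk tissue fewer cells of a type cannot be told apart from less RNA per cell. Arrays of different dogs by the labels were in 2 cases more alike than all others, namely non-metastatic tumors 3 and 5 (r = 0.993 across probe sets) and metastatic tumor 2 with non-metastatic tumor 4 (r = 0.991), against a median of 0.949 over 351 pairs. Member differences are therefore also given without these 4 tumors, a setting added once the values were known.

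Of the 8 genes, HRAS, RAP1A, RASSF1, RASSF4 and PTPN11 were higher and BRAF was lower in metastatic tumors, at an adjusted p under 0.05 in limma with Benjamini-Hochberg adjustment over all genes. NRAS and SHC1 did not pass with their main probe sets. Over all genes tested 17.8% passed, 10.6% as higher and 7.27% as lower, so that many genes moved. The 8 genes were chosen with earlier results of these data known. The 6 of 8 are therefore a description, and their excess over that share is no test. With a block for sample names ending in T, 0 of the 15 probe sets passed, and 10 of all genes did. That block leaves 2 metastatic tumors to carry the comparison, so that it can show little about the 8 genes. RASSF4 had the largest difference of the 8, more than 4-fold in linear terms, and the RAP1A difference was the smallest that passed. All differences below are metastatic minus non-metastatic on the log2 scale.

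**Figure D1:**
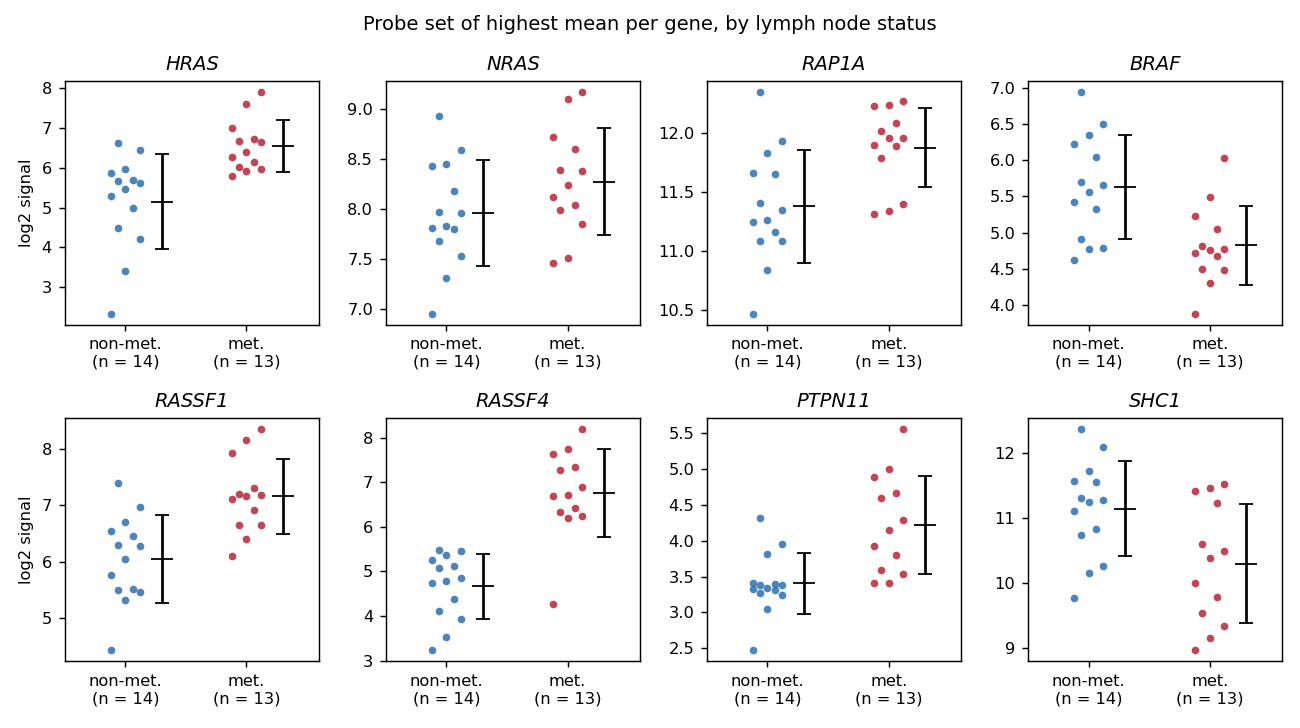
Log2 signal of the main probe set of each of the 8 genes in 14 non-metastatic (blue) and 13 metastatic (red) tumors, 1 point per tumor, with bars for mean ± SD. RASSF4 shows 12 of 13 metastatic tumors above every non-metastatic tumor. The groups overlap in each of the other genes too, with 3 of 13 metastatic tumors above every non-metastatic tumor for RASSF1 and 0 for RAP1A.

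HRAS, a RAS GTPase with an oncogenic form in several tumor types, had a log2 level with lowest, median and highest values of 5.80, 6.40 and 7.89 in metastatic tumors and of 2.35, 5.53 and 6.62 in non-metastatic tumors. All 13 metastatic tumors lay above the non-metastatic median, and 6 lay above every non-metastatic tumor. HRAS rose by 1.39 in limma (standard error 0.36, adjusted p = 0.0106), or 2.62-fold, and by 1.52 without the 4 like arrays (adjusted p over probe sets = 0.0152). The second HRAS probe set rose by 0.99 (standard error 0.30, adjusted p over probe sets = 0.0213). The spread of HRAS was wider in non-metastatic tumors (SD 1.18) than in metastatic tumors (SD 0.64), and 2 non-metastatic tumors at 2.35 and 3.41 extended it downward. With the upper quartile of the array in the model the HRAS difference was 0.40 (adjusted p = 0.574), and with tumor size it was 0.83 (adjusted p = 0.238). The second probe set lost its call in the same models (0.65 and 0.66, adjusted p over probe sets = 0.374 and 0.273) and after a second quantile normalization (0.85, adjusted p = 0.0514).

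NRAS, a RAS GTPase close to HRAS in sequence, gave different answers with its 2 probe sets. The brighter one had values of 7.46, 8.24 and 9.17 (lowest, median, highest) in metastatic and of 6.96, 7.89 and 8.94 in non-metastatic tumors. These groups overlapped over most of their range, and the difference of 0.31 did not pass (standard error 0.20, adjusted p = 0.270 from limma, 95% interval −0.10 to 0.73). The dimmer probe set had values of 6.92, 7.80 and 9.10 in metastatic and of 4.41, 6.45 and 7.80 in non-metastatic tumors. There all 13 metastatic tumors lay above the non-metastatic median and 7 above every non-metastatic tumor. It rose by 1.70 (standard error 0.28, adjusted p over probe sets = 0.000417), or 3.24-fold. Over all probe sets 21.2% had an adjusted p under 0.05, 9.76% as higher. The 2 NRAS probe sets followed each other from tumor to tumor once each group mean was removed (Pearson r = 0.747, permutation p = 2e-05, Spearman rho = 0.700, permutation p = 9e-05, adjusted 3.25e-05 and 0.00013 over 13 pairs, n = 27, and r = 0.630 without the 2 tumors farthest from the median). Such a split is not rare on this array, since among 8254 genes with several probe sets 16.9% had a probe set that passed while the one of highest mean did not. The dimmer probe set also passed with tumor size in the model (1.62, adjusted p = 0.0121) and with the upper quartile of the array (2.03, adjusted p = 0.00251). It did not pass with a block for names ending in T (1.73, adjusted p = 0.331). The brighter one passed with the upper quartile (0.88, adjusted p over genes = 0.0132) but not with tumor size (0.42, adjusted p over genes = 0.345). Without the 4 like arrays the probe sets had differences of 0.27 (adjusted p = 0.392) and 1.77 (adjusted p = 0.000985). The mean of both probe sets rose by 1.01 (adjusted p = 0.00397).

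RAP1A, a RAS-like GTPase known for the control of integrins and cell junctions, had values of 11.32, 11.96 and 12.27 in metastatic and of 10.47, 11.31 and 12.35 in non-metastatic tumors. The 13 metastatic tumors all lay above the non-metastatic median, but the highest value of all belonged to a non-metastatic tumor. RAP1A rose by 0.50 in limma (standard error 0.16, adjusted p = 0.0308), or 1.41-fold, and its second probe set by 0.52 (standard error 0.14, adjusted p over probe sets = 0.0128). Without the 4 like arrays the differences were 0.58 and 0.63, both past the threshold. The call of the main probe set was lost without non-metastatic tumor 2 (adjusted p = 0.0505), after a second quantile normalization (0.35, adjusted p = 0.106), with tumor size in the model (0.39, adjusted p = 0.248) and with the upper quartile of the array (0.35, adjusted p = 0.341), and with a block for sample names ending in T the sign turned (−0.053, adjusted p = 0.941). The second probe set lost its call with tumor size (0.48, adjusted p = 0.114), with the upper quartile (0.23, adjusted p = 0.491) and with the name block (0.40, adjusted p = 0.549).

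BRAF, the RAF kinase that is often mutated in human melanoma, was lower in metastatic tumors, opposite to HRAS and RAP1A. It had values of 3.88, 4.76 and 6.03 in metastatic and of 4.62, 5.61 and 6.94 in non-metastatic tumors. Below the non-metastatic median lay 12 of 13 metastatic tumors, and 5 non-metastatic tumors lay above every metastatic tumor. BRAF fell by 0.80 (standard error 0.24, adjusted p = 0.0231 from limma), which is 1.75-fold lower in metastatic tumors, with a difference of −0.83 without the 4 like arrays (adjusted p over probe sets = 0.0334). The array has 1 BRAF probe set under this symbol. With tumor size in the model the difference was close to that without it but did not pass (−0.79, adjusted p = 0.128), and with the upper quartile it was −0.63 (adjusted p = 0.257).

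RASSF4, a RAS association domain gene, separated the groups most clearly of the 8. Its values were 4.26, 6.71 and 8.20 in metastatic and 3.23, 4.82 and 5.48 in non-metastatic tumors. Above every non-metastatic tumor lay 12 of 13 metastatic tumors, and the exception, metastatic tumor 10, lay at 4.26 within the non-metastatic range. Such a separation upward was found for 0.086% of all genes. RASSF4 rose by 2.10 in limma (standard error 0.32, adjusted p = 0.000330, 95% interval 1.43 to 2.76), or 4.28-fold, and by 2.30 without the 4 like arrays (adjusted p over probe sets = 0.000414). With tumor size in the model the difference was 1.74, and with the upper quartile of the array it was 1.61 (adjusted p over probe sets = 0.0121 and 0.0193). With a block for names ending in T the call was lost (2.60, adjusted p over genes = 0.132).

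RASSF1, the best known tumor suppressor of this family, had values of 6.11, 7.16 and 8.35 in metastatic and of 4.44, 6.16 and 7.39 in non-metastatic tumors. Of 13 metastatic tumors 12 lay above the non-metastatic median, and 3 lay above every non-metastatic tumor. RASSF1 rose by 1.11 in limma (standard error 0.27, adjusted p = 0.00706), or 2.16-fold, and by 1.30 without the 4 like arrays (adjusted p over probe sets = 0.00430). Which RASSF1 isoforms its single probe set detects was not examined. The difference did not pass with tumor size in the model (0.84, adjusted p = 0.136) or with the upper quartile (0.63, adjusted p = 0.280).

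PTPN11, which encodes the phosphatase SHP2, had values of 3.41, 4.16 and 5.56 in metastatic and of 2.47, 3.36 and 4.32 in non-metastatic tumors. All 13 metastatic tumors were above the non-metastatic median, and 5 were above every non-metastatic tumor, while 10 of the latter lay between 3.05 and 3.42. PTPN11 rose by 0.81 in limma (standard error 0.21, adjusted p = 0.0111), or 1.76-fold, and by 0.83 without the 4 like arrays (adjusted p over probe sets = 0.0211). Its probe set was dim, with a mean of 3.80 beside a median of 3.77 over the means of all probe sets. The difference had about the same size with tumor size in the model (0.87, adjusted p = 0.0615) and with the upper quartile (0.83, adjusted p = 0.0843), but passed in neither.

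SHC1, an adaptor that links phosphorylated receptors to GRB2, had 5 probe sets, and 0 of them passed. The brightest had values of 8.96, 10.38 and 11.51 in metastatic and of 9.77, 11.26 and 12.36 in non-metastatic tumors. There 10 of 13 metastatic tumors lay below the non-metastatic median, and 5 non-metastatic tumors lay above every metastatic tumor. Its difference was −0.85 (standard error 0.31, adjusted p = 0.0592 from limma, 95% interval −1.49 to −0.20), and without the 4 like arrays it was −0.83. It passed after a second quantile normalization (−0.99, adjusted p = 0.0319), among probe sets above the median brightness (−0.85, adjusted p = 0.0449), with age in the model (−0.98, adjusted p = 0.0327) and without any 1 of 6 tumors. The next probe sets in brightness had differences of −0.98 (adjusted p over probe sets = 0.0569) and −0.35 (0.423), and the 2 dimmest had 0.43 each (0.229 and 0.384). Differences of both signs among the probe sets of a gene, passing or not, occurred for 35.1% of the genes with several probe sets. That share pools genes with any number of probe sets, so that it is not a like rate for a gene with 5.

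**Figure D2:**
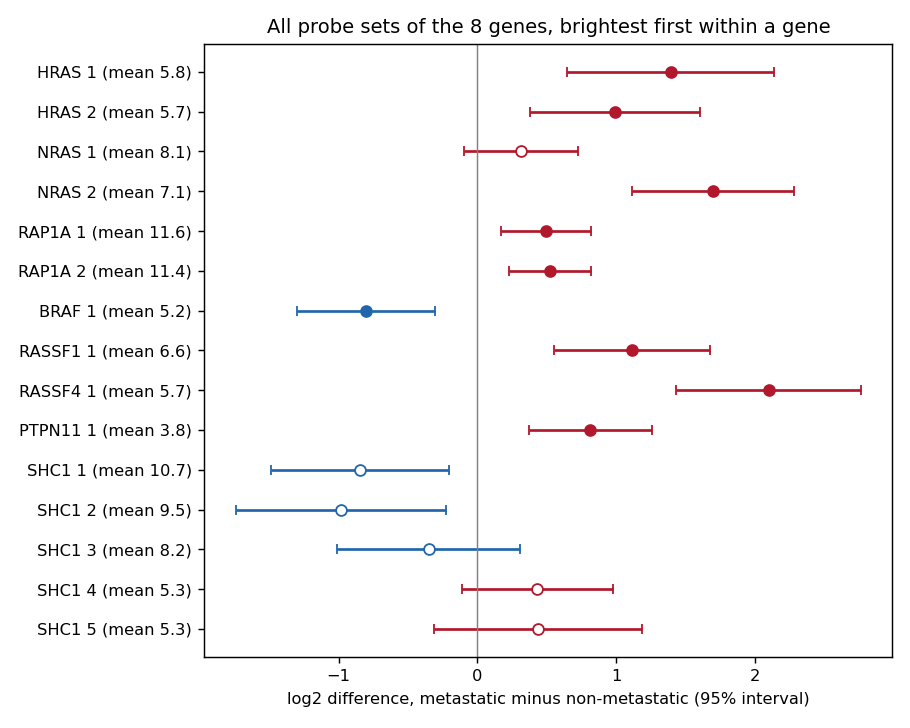
Difference of each of the 15 probe sets, metastatic minus non-metastatic, on the log2 scale with 95% intervals from limma, red above and blue below 0, filled where the adjusted p over probe sets was under 0.05, with the mean log2 signal in brackets. The 2 NRAS probe sets lie at 0.31 and 1.70, and those of SHC1 lie on both sides of 0.

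Grade was compared with lymph node status in the model, and none of the 8 genes passed as different between grades. Of 15115 genes 0 passed an adjusted p of 0.05 in limma (0%), and 5.85% had an unadjusted p under 0.05. The differences of the 8 genes, grade III minus grade II, ran from −0.39 for HRAS (standard error 0.37, adjusted p = 0.765) to 0.28 for NRAS (standard error 0.20, adjusted p = 0.738). That of RASSF4 was −0.0086 (95% interval −0.70 to 0.69).

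Within each grade the groups were ordered as in the whole set. Median RASSF4 levels were 6.66 in metastatic and 5.07 in non-metastatic tumors of grade II (n = 6 and 5), and 6.71 and 4.78 in those of grade III (n = 7 and 9). In grade III all 7 metastatic tumors lay at 6.21 or above and all 9 non-metastatic tumors at 5.48 or below. The share of all genes that separate or pass within grade III was not counted. RASSF4 rose by 2.31 within grade III (standard error 0.44, adjusted p = 0.0143 from limma), and its difference within grade II was 1.78 (standard error 0.52, adjusted p = 0.0643). RASSF4 was not alone in this, as the dimmer NRAS probe set rose by 1.85 within grade III (standard error 0.37, adjusted p over probe sets = 0.00945 from limma). Within grade II that probe set had 1.56 and did not pass (adjusted p over probe sets = 0.0640). HRAS medians were 6.65 and 5.61 in grade II and 6.15 and 5.30 in grade III, with differences of 1.30 (adjusted p = 0.234) and 1.38 (adjusted p = 0.101). BRAF had differences of −1.06 and −0.64, and RASSF1 of 1.15 and 1.07, in grades II and III, and none of these passed. The lymph node differences of the 8 genes did not pass a test of change between grades (adjusted p of 1.00 over all genes for each), and 0 of 15115 genes passed it (2.66% at an unadjusted p under 0.05).

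**Figure D3:**
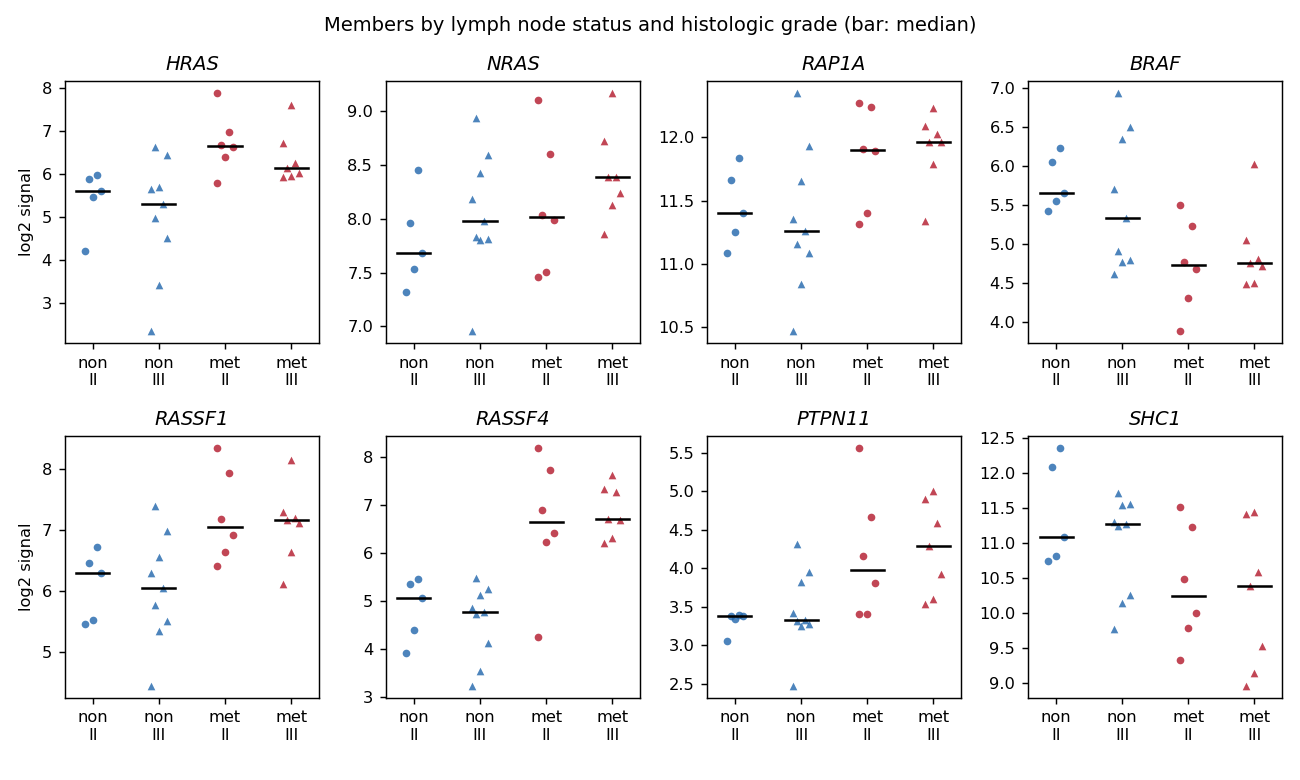
Log2 signal of the main probe sets by lymph node status and histologic grade, with 5, 9, 6 and 7 tumors from left to right in each panel and a bar at the median. Metastatic medians lie above non-metastatic medians of the same grade for HRAS, NRAS, RAP1A, RASSF1, RASSF4 and PTPN11, and below them for BRAF and SHC1.

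HRAS had the steepest slope of the 8 genes on tumor size. With lymph node status in the model its level differed by −0.49 per doubling of size (standard error 0.19, unadjusted p = 0.0154, adjusted p = 0.639 from limma), and that of its second probe set by −0.29 (standard error 0.17). The slope of the main probe set was −0.47 within metastatic and −0.52 within non-metastatic tumors. RASSF4 had a slope of −0.31 (standard error 0.18, adjusted p = 0.654) and RASSF1 of −0.24 (standard error 0.15, adjusted p = 0.682), and the remaining slopes lay between −0.094 for RAP1A and 0.092 for SHC1. None of the 8 passed, as 0 of 15115 genes did (0%, and 7.75% at an unadjusted p under 0.05). Nor did the slope of any of the 8 pass a test of change with lymph node status, which 1 gene outside them did (0.00662%).

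Tumors of exactly 3 cm, 5 metastatic and 6 non-metastatic, allowed the groups to be set side by side at equal size. There RASSF4 had 6.24 to 8.20 in metastatic and 3.54 to 5.46 in non-metastatic tumors. RASSF1 had 6.64 to 8.35 and 4.44 to 6.45, and PTPN11 had 3.81 to 4.89 and 2.47 to 3.40. These 3 genes did not overlap between the groups at this size, where 3.12% of all genes separated in the same direction and 4.95% in either. HRAS, with 5.95 to 6.98 and 4.50 to 6.44, and BRAF, with 3.88 to 5.23 and 4.62 to 6.50, overlapped, as did NRAS, with 7.46 to 8.73 and 6.96 to 8.43, and SHC1, with 9.14 to 11.51 and 9.77 to 12.09. RAP1A, with 11.32 to 12.23 and 10.84 to 11.93, overlapped too, and its means of 11.68 and 11.51 and medians of 11.40 and 11.54 had opposite orders. These values are a description, with no test. Above 3 cm the metastatic group held 2 tumors, with RASSF4 at 4.26 and 6.71, so that the groups can hardly be compared among larger tumors.

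**Figure D4:**
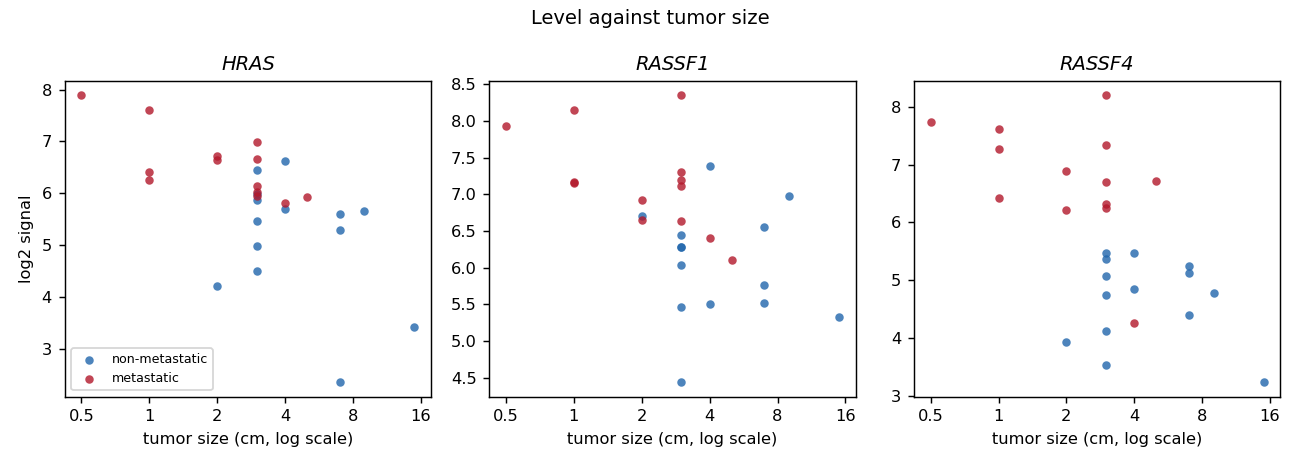
Log2 signal of HRAS, RASSF1 and RASSF4 against tumor size in cm (log scale) in 13 metastatic (red) and 14 non-metastatic (blue) tumors. Metastatic tumors extend to 0.5 cm and non-metastatic tumors to 15 cm, and at 3 cm the RASSF1 and RASSF4 values of the groups do not overlap.

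Non-metastatic tumor 12 probably came from a dog that, by the text of the study, had lung metastases after surgery. It was matched to that dog through age, grade, size and mixed breed in the clinical table, whereas its sample label gives the same survival class as all other non-metastatic tumors. Among the 14 non-metastatic tumors it had the highest value of both NRAS probe sets (8.94 and 7.80) and of both RAP1A probe sets (12.35 and 11.63), and its main RAP1A value was the highest of all 27 tumors. Its main HRAS value of 2.35 was the lowest of all 27, while the second HRAS probe set, at 4.52, ranked 11 of 14 from the highest. BRAF, at 4.77, ranked 13 of 14. RASSF4, at 5.12, and RASSF1, at 5.76, lay inside the non-metastatic range at ranks 5 and 9 of 14. This array had an upper quartile of 7.57, and of all 27 arrays only non-metastatic tumors 2 (7.54) and 10 (7.52) had a lower one. These are the values of 1 tumor and were not tested.

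Other genes around RAS were counted from lists written with earlier results of these data known. Of 99 measured genes in 8 lists, 18 were higher and 2 lower in metastatic tumors, and without the 8 genes 14 of 91 passed (15.4%, 13 higher and 1 lower), beside 17.8% of all genes. Median differences were 0.076 for these 91 and −0.0019 for all genes. The counts by list below include the 8 genes. Over all genes 10.6% were higher and 7.27% lower.

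Among 13 RAS GTPase genes 5 were higher, HRAS and RAP1A included, and 0 lower, with a median difference of 0.49. RALA, which acts in vesicle transport below RAS, was higher by 1.07 in limma (standard error 0.28, adjusted p = 0.0103) and RAP1B by 0.49 (standard error 0.13, adjusted p = 0.0145), and in both all 13 metastatic tumors exceeded the median of the others. RAP2A, named after its value was seen, rose by 1.31 (adjusted p = 0.0192). Of the RAP2A probe sets 1 of 2 passed, and of the RAP1B probe sets 2 of 3. Of 10 genes for enzymes and carriers that handle the lipid anchor of RAS proteins, 3 were higher and 0 lower, with a median of 0.49. PDE6D, a carrier of prenylated proteins, rose by 0.88 (adjusted p = 0.000598), the depalmitoylating enzyme gene LYPLA1 by 0.80 and the protease gene ZMPSTE24, known for prelamin A, by 0.72. For FNTB and FNTA, named after their values were seen, 1 of 2 and 1 of 4 probe sets passed as higher, not those of highest mean.

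In the RASSF family with its MST kinases 6 of 13 genes were higher and 0 lower, with a median of 0.36. Over all genes 10.6% were higher, and this list was written with earlier results known. Beside RASSF4 and RASSF1 these were the Hippo kinase genes STK4, which rose by 1.82 in limma (standard error 0.43, adjusted p = 0.00569), and STK3, which rose by 0.57 (adjusted p = 0.0247), and the dim genes RASSF5 (0.35, adjusted p = 0.0182) and RASSF7 (0.30, adjusted p = 0.0394, named after its value was seen). RASSF2 had −0.019 (adjusted p = 0.923). RASSF6, RASSF8 and RASSF9 had −0.28, −0.28 and −0.43 without passing and are also named after their values were seen. All 3 STK3 probe sets passed as higher, against 1 of 2 for STK4, and 1 of 3 RASSF8 probe sets, not that of highest mean, passed as lower. For SAV1, named after its values were seen, 2 of 4 probe sets passed as higher, but not that of highest mean.

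Of 9 genes for RAF kinases and scaffolds 2 were higher and BRAF alone was lower. The higher ones were the 14-3-3 genes YWHAZ (0.39, adjusted p = 0.0219 from limma) and YWHAQ (0.32, adjusted p = 0.0403), whose products bind phosphorylated RAF. Of the YWHAZ probe sets 2 of 3 passed. ARAF, the RAF kinase measured beside BRAF, had 0.11 (standard error 0.18, adjusted p = 0.700). None of 6 MEK and ERK kinase genes passed, with MAP2K1 at −0.11 (adjusted p = 0.531) and MAP2K2 at 0.59 (adjusted p = 0.0978). Among 21 genes for adaptors and exchange factors PTPN11 and the exchange factor gene RASGRP3 (0.97, adjusted p = 0.00995) were higher and 0 were lower. The RASGRP3 probe set was dim, with a mean of 3.85. For GAB1, named after its values were seen, 1 of 3 probe sets, not that of highest mean, passed as lower. GRB2, the partner of SHC1, had 1.14 (standard error 0.47, adjusted p = 0.0870) and the exchange factor gene SOS1 0.35 (adjusted p = 0.208).

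None of 15 genes that switch RAS off or restrain it passed, with NF1, neurofibromin, at −0.71 (standard error 0.40, adjusted p = 0.215 from limma). Of its 3 probe sets 1, not that of highest mean, passed as lower. For RASAL2, named after its values were seen, 1 of 2 probe sets, again not that of highest mean, passed as higher. Of 12 genes that ERK signalling is known to induce, ETV5 fell by 1.69 (standard error 0.48, adjusted p = 0.0167), 0 were higher, and the median was −0.079. Genes that did not pass may still differ between the groups.

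**Figure D5:**
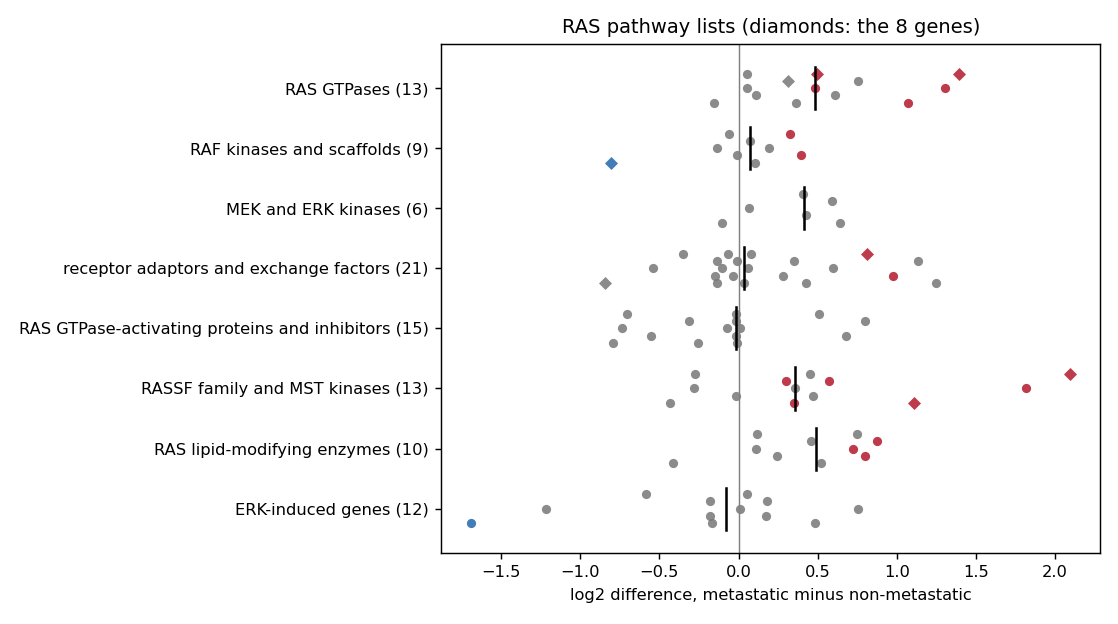
Differences of 99 genes in 8 lists, metastatic minus non-metastatic on the log2 scale, with red for higher and blue for lower at an adjusted p under 0.05, grey otherwise, diamonds for the 8 genes, a bar at each list's median and the number of genes in brackets. RASSF4 (2.10) and STK4 (1.82) lie farthest to the right and ETV5 (−1.69) farthest to the left.

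For each of the 8 genes the most alike genes were taken by Pearson correlation over the 27 tumors after removal of each group mean, among 8765 genes of more than median brightness. HRAS was most like PRDX5 (r = 0.855), a mitochondrial and peroxisomal peroxidase, followed by BSCL2 and DRAP1. NRAS was most like CBLL1 (0.723), DENND1C and TREM1, and RAP1A most like IFNGR2 (0.897), an interferon gamma receptor chain, ATG3 and GGH. BRAF was nearest to ZNF827 (0.674), LANCL2 and TMEM42. RASSF1 followed TAGLN2 (0.825), ETHE1 and TUBA1C, and RASSF4 followed ACKR3 (0.681), a chemokine receptor, SH3BGRL3 and GNPDA1. PTPN11 was most like ARPC3 (0.787), of the actin-nucleating complex, KMT5A and CCDC117. SHC1 was most like LRP1 (0.870), NID1 and BGN, the last pair being genes of the extracellular matrix. None of the 8 was among the 3 nearest of another. These correlations share the arrays and their quality, and are given as a description.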

How the data were processed

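The authors hybridized RNA of each tumor to 1 array and ran Partek Genomic Suite, whose gcRMA workflow corrects background by RMA, normalizes by quantiles and summarizes probe sets by median polish. The deposited log2 signals of that workflow were used without further change. Quantile normalization makes levels relative within an array, and probe sets of different genes were not compared in level. After removal of 175 controls from 43035 probe sets, 42860 remained, of which 29254 carry 1 gene symbol, 439 several and 13167 none in the platform annotation. Differences were fitted with limma 3.58.1 (lmFit, eBayes) in R 4.3.3 over all 42860 probe sets. P-values were adjusted (Benjamini-Hochberg) over 15115 genes, each by its probe set of highest mean, and those of further member probe sets over all probe sets, with calls at 0.05. Grade and log2 size were fitted with lymph node status. Groups came from the labels, which name separate dogs, and the number of arrays limits precision. The code was tested on simulated data. Figures were drawn with matplotlib. Members and lists were chosen with earlier results of these data known. Named were all 8 genes, up to 3 genes per list and direction with the smallest adjusted p, core genes of the pathway (some are not reported here), and the 3 genes most like each member. Alternatives were another quantile normalization, median centring, brighter probe sets, the mean of probe sets, the methods' ANOVA, covariates (grade, size, age, upper quartile, sample name ending), another source of grade and left-out tumors. No coordinates are given, as the files name no genome build. Sequences are not given either, as none were among the references used.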

Additional observations from a re-analysis of the deposited data

Results flagged for a closer look

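Within the 4 groups by lymph node status and grade, 32 sets of values were examined for a single tumor far from the rest, and 2 were found. Chance alone flags about 1 in 20 such sets. In metastatic grade III tumors, BRAF was 6.03 in metastatic tumor 12, whereas the other 6 lay between 4.48 and 5.05. In non-metastatic grade II tumors, PTPN11 was 3.05 in non-metastatic tumor 6, whereas the other 4 lay between 3.34 and 3.40. Both values were measured once, on 1 array each.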

How the results depend on the processing

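Of 104 lymph node differences of the 8 genes under alternatives other than single left-out tumors, 82 kept direction and side of the threshold. With log2 tumor size as covariate, HRAS (0.83), RAP1A (0.39), BRAF (−0.79), RASSF1 (0.84) and PTPN11 (0.87) no longer passed, leaving 1 member higher and 0 lower, and 478 of all genes passed in place of 2694. With the upper quartile as covariate, HRAS (0.40), RAP1A (0.35), BRAF (−0.63), RASSF1 (0.63) and PTPN11 (0.83) were lost and NRAS (0.88, adjusted p = 0.0132) passed, leaving 2 higher and 0 lower, and 798 of all genes passed. With a block for sample names ending in T, which leaves metastatic tumors 1 and 2 to carry the comparison, HRAS (1.20), BRAF (−0.76), RASSF1 (1.77), RASSF4 (2.60) and PTPN11 (0.79) were lost, RAP1A turned to −0.053, 0 members were higher or lower and 10 of all genes passed. A second quantile normalization took RAP1A to 0.35, below the threshold, and SHC1 to −0.99, past it, giving 2 members and 4 list genes lower. SHC1 also passed among brighter probe sets (−0.85, where the median of all genes was 0.18) and with age (−0.98), giving 2 members lower each time, and NRAS passed as the mean of its probe sets (1.01). Without the like arrays 1 list gene was lower in place of 2. The causes were not tested. Leaving out 1 tumor at a time gave HRAS 1.17 to 1.50, NRAS 0.24 to 0.39, RAP1A 0.43 to 0.57 (lost without non-metastatic tumor 2), BRAF −0.91 to −0.70, RASSF1 0.99 to 1.21, RASSF4 1.98 to 2.31, PTPN11 0.70 to 0.88 and SHC1 −0.95 to −0.73 (past the threshold without metastatic tumor 1, 3, 6 or 7 or non-metastatic tumor 2 or 10). Members higher then numbered 4 to 5 and lower 1 to 2, list genes higher 16 to 20 and lower 2 to 4 (4 without non-metastatic tumor 10), and all genes called 2205 to 2916. Among differences that passed nowhere, grade signs turned with size in the model for RAP1A (0.035), RASSF1 (0.020) and RASSF4 (0.15), after a second quantile normalization for BRAF (0.017) and RASSF4 (0.0061), and with the grades of the clinical table for BRAF (0.069). Size slopes turned without the largest tumor for BRAF (−0.14) and per cm for PTPN11 (−0.00031) and SHC1 (−0.0058). With size in cm 150 genes had a slope that passed, in place of 0. Dim probe sets such as that of PTPN11 limit what can be read from their fold. No paired analysis was possible because each tumor came from a different dog and the replicate numbers were given in accession order.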
